A study of Mus musculus with 26 samples.

Results

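The comparison described here is that of brain-derived neurotrophic factor (BDNF) against green fluorescent protein (GFP) in the entorhinal cortex of mice carrying an amyloid precursor protein (APP) transgene. Its members are the 8 arrays, of 26 in the series, whose labels name that region, that genotype and either treatment: 4 BDNF arrays and 4 GFP arrays. Aged mice had received a lentivirus in the entorhinal cortex, and tissue was dissected 4 weeks after infection, so the vector and its injection are shared by both groups and only its cargo differs. For reference, the region also had 2 arrays of non-transgenic mice given GFP and 3 of non-transgenic mice with a sham lesion, and the hippocampus had 13 arrays of the same 4 groups. The sources used here do not give the line and promoter of the transgene, the promoter of the vector or the mouse behind each array. The labels call the arrays of a group biological replicates. Values are log2 RMA values, so a difference of 1 is a doubling, and differences are given as BDNF minus GFP with their standard error.

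BDNF is a secreted growth factor of neurons. It binds the receptor tyrosine kinase TrkB, whose signal runs through the Ras and ERK kinases, phospholipase C and PI3 kinase, and reaches the nucleus, where transcription factors such as CREB switch on immediate early genes. The entorhinal cortex is the main cortical gateway to the hippocampus, its neurons make BDNF themselves, and it is among the areas affected early in Alzheimer's disease, which APP transgenic mice model in part. Delivered BDNF could be read in such an experiment as the transcript of Bdnf, as activity-regulated genes, or as a change in the cell types of the tissue, and the genes below are ordered in that way.

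The 8 arrays resembled each other closely over the 14941 genes tested, each read by its brightest probe set. Pairs of BDNF arrays correlated at 0.980 to 0.991, pairs of GFP arrays at 0.987 to 0.993, and BDNF with GFP arrays at 0.980 to 0.994. Thy1, a surface glycoprotein of neurons chosen here after its values were seen, separated the genotypes: it lay between 13.53 and 13.76 on the BDNF arrays, between 13.67 and 13.80 on the GFP arrays, and between 12.30 and 12.46 on the 5 non-transgenic arrays. App itself was alike in all groups, so its probe set does not check the genotype. The mean over 18 genes of oligodendrocytes and myelin was 7.03 on BDNF array 3, against 7.71 to 8.46 on the other 7. The mean of all probe sets was 6.13 on that array and 6.08 to 6.09 on the others. The X-linked RNA Xist was high on BDNF arrays 1 and 4 and GFP arrays 2 and 4 (10.60 to 10.96) and low on the other 4 (5.42 to 5.78), with the Y-linked genes Eif2s3y and Kdm5d in the opposite order, so each group held 2 arrays of each class. All 5 non-transgenic entorhinal arrays were in the high class. The lists of major histocompatibility complex (MHC) class I and II, interferon response and complement genes were highest on BDNF array 1 and GFP array 4 and lowest on BDNF arrays 2 and 3, as described below.

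The transcript of the delivered factor did not separate the groups. Bdnf read 8.45, 8.18, 7.72 and 7.71 on BDNF arrays 1 to 4 and 8.12, 8.02, 7.91 and 7.56 on GFP arrays 1 to 4. BDNF arrays 1 and 2 were above every GFP array, BDNF arrays 3 and 4 lay inside the GFP range, and the 5 non-transgenic arrays were at 7.42 to 8.26. The difference was 0.11 ± 0.21, with a 95% confidence interval of −0.34 to 0.56, and a second Bdnf probe set read 0.09. The sources used here do not say whether either probe set can read a vector transcript. Without BDNF array 1 the difference was −0.03.

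The receptors of BDNF likewise overlapped. Ntrk2, which encodes TrkB, read 11.10, 11.09, 10.76 and 11.23 with BDNF and 11.33, 10.97, 11.15 and 11.10 with GFP, a difference of −0.09 ± 0.10. Its 8 probe sets read from −0.23 to 0.27 and disagreed in sign. Ngfr, the gene of the p75 receptor that binds all neurotrophins, read 5.37, 5.48, 5.60 and 5.23 with BDNF and 5.60, 5.57, 5.50 and 5.61 with GFP, a difference of −0.15 ± 0.08. BDNF array 3 reached the GFP range and the other 3 lay below it. Sort1, the gene of the sorting receptor sortilin, read between 10.86 and 11.09 on BDNF arrays and between 10.86 and 10.97 on GFP arrays (0.08 ± 0.06). App, the gene of the amyloid precursor, read between 13.25 and 13.36 on the BDNF arrays and between 13.25 and 13.32 on the GFP arrays, and its difference of 0.01 ± 0.05 is bounded by −0.11 and 0.12.

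**Figure D1:**
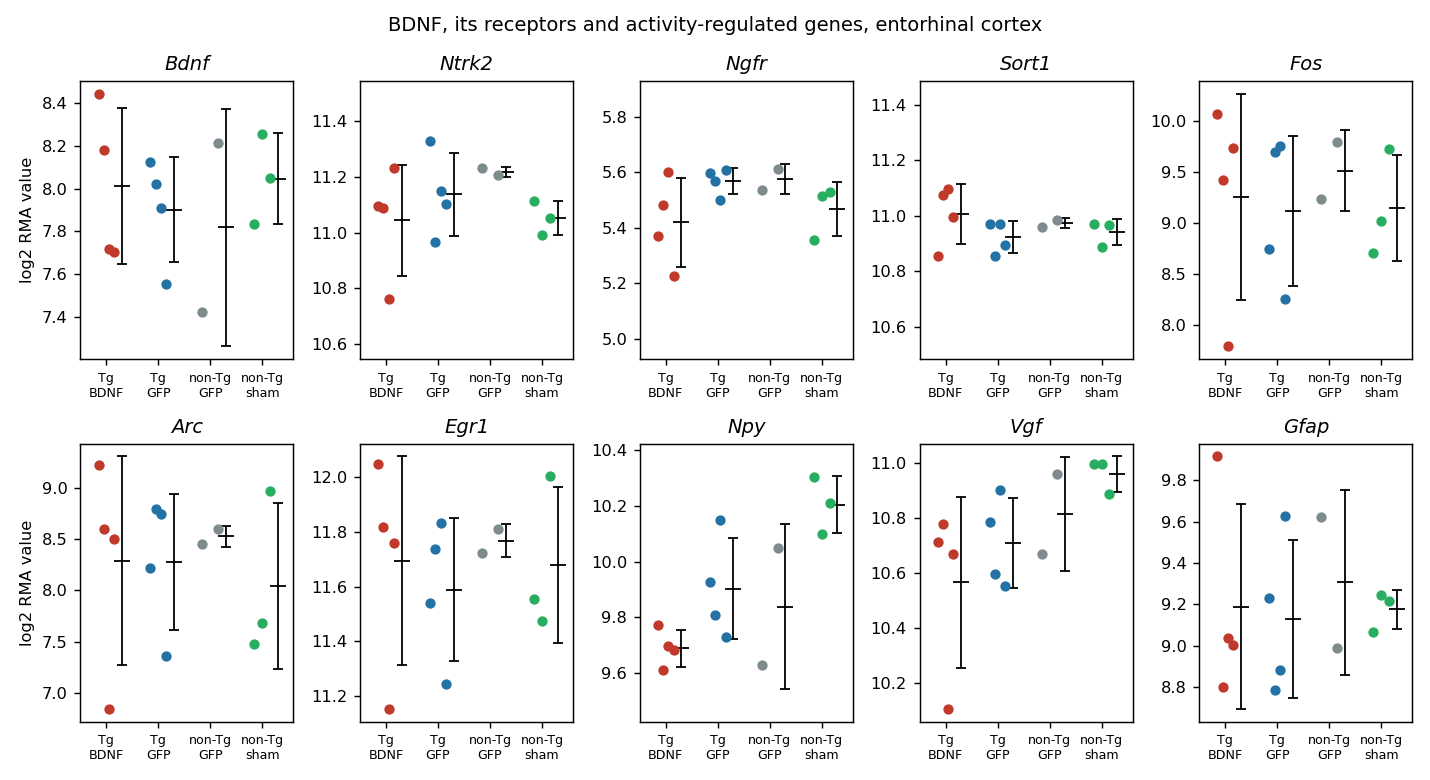
Log2 RMA values of 10 genes (vertical axes, different for each gene) on the entorhinal arrays of 4 groups, each point an array, with the group mean and SD as a bar beside the points. Bdnf, Ntrk2, Sort1 and the activity-regulated genes overlap between transgenic BDNF and transgenic GFP arrays, and BDNF array 3 has the lowest Fos (7.79), Arc (6.84) and Vgf (10.10) of its group.

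Over all genes, the comparison had 0 calls. Limma tested 14941 genes, of which 0 (0%) had an adjusted p under 0.05, the smallest being 0.993. At an unadjusted p under 0.05 there were 580 genes (3.88%), of which 343 read higher and 237 lower with BDNF. The 4 BDNF arrays all lay above the 4 GFP arrays in 225 genes (1.51%) and all below them in 121 genes (0.810%). That split depended on the scaling: it was 178 above and 151 below after renewed quantile normalization, and 279 and 100 after centring each array on its median. The median difference of all genes was 0.01, and 8238 genes (55.1%) read higher.

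The intervals show how large a change these arrays could hold. The 95% confidence interval lay wholly within a 2-fold change in either direction for 14668 genes (98.2%) and within a 1.5-fold change for 13734 (91.9%). The median standard error was 0.10. The difference was larger than 1 in 13 genes and larger than 0.5 in 103 genes. Most of the 13 were immune genes or genes whose levels fell in separate ranges, and they are described after the gene lists.

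**Figure D2:**
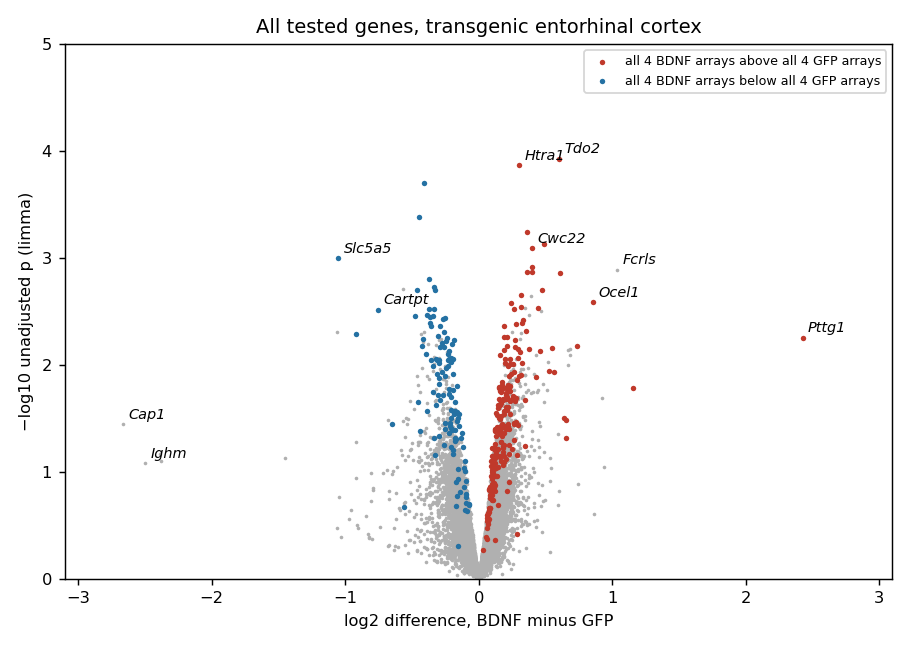
Each point is 1 of the 14941 genes tested, with the log2 difference BDNF minus GFP on the horizontal axis and −log10 of the unadjusted limma p on the vertical axis. Coloured points are the 225 and 121 genes whose arrays do not overlap between the groups. Fcrls, Cap1 and Ighm have large differences although their arrays overlap.

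Among the genes whose arrays did not overlap, Tdo2 had the smallest p. It encodes tryptophan dioxygenase, which opens the ring of tryptophan. Tdo2 read 4.46, 4.42, 4.68 and 4.63 with BDNF and 3.66, 4.00, 4.07 and 4.05 with GFP. The lowest BDNF array stood clear of the highest GFP array, but all 8 were near the filter level of 4.33. Their mean, 4.25, was below that level, and the gene was tested because the filter used all 26 arrays and Tdo2 was at 6.66 to 7.88 in the hippocampus. The difference was 0.60 ± 0.11, with an interval of 0.37 to 0.84. Its other 2 probe sets read 0.03 and −0.15, and the mean of its probe sets gave 0.16. The sham arrays, at 4.26 to 4.55, were nearer to the BDNF arrays, and the non-transgenic GFP arrays, at 3.70 and 3.88, nearer to the GFP arrays.

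Htra1, a secreted serine protease, was the brightest of the 12 named genes that were higher with BDNF. It read 11.14, 11.03, 11.07 and 11.05 with BDNF and 10.73, 10.85, 10.76 and 10.72 with GFP. The difference was 0.31 ± 0.06, and a second probe set read 0.23. Non-transgenic arrays fell on both sides: the GFP arrays read 10.80 and 10.80 and the sham arrays 10.99 to 11.10. Hippocampal Htra1 read 0.17 ± 0.09 higher with BDNF, with overlapping arrays.

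Cwc22, Snhg7 and Ccdc91 followed among the genes that were higher with BDNF. Cwc22, a splicing factor that loads the exon junction complex, read 8.11, 8.03, 8.21 and 7.94 with BDNF and 7.71, 7.55, 7.85 and 7.57 with GFP (0.40 ± 0.09). Its sham arrays were lower still, at 6.77 to 6.84, and its non-transgenic GFP arrays read 8.08 and 7.76. Snhg7, a host transcript of small nucleolar RNAs, read 7.02, 6.85, 7.33 and 7.03 with BDNF and 6.72, 6.35, 6.50 and 6.68 with GFP (0.49 ± 0.11). Ccdc91, a partner of clathrin adaptors at the Golgi, read 8.74 to 8.97 with BDNF and 8.48 to 8.58 with GFP (0.36 ± 0.08). Its other 3 probe sets read 0.48, 0.12 and −0.02.

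The remaining genes of that direction were dimmer. Ocel1 had the largest difference of the 12, reading 5.66, 6.34, 6.67 and 6.16 with BDNF and 5.63, 5.51, 5.44 and 4.83 with GFP (0.86 ± 0.23). BDNF array 1 and GFP array 1 were only 0.03 apart. Cabcoco1 read 0.61 ± 0.15, Ndufb4, a subunit of respiratory complex I, 0.48 ± 0.12, and Myl6b, a myosin light chain, 0.40 ± 0.10. Tbx3, a T-box transcription factor, read 0.36 ± 0.09, but its other 4 probe sets read from −0.15 to 0.10. Klk9, a kallikrein protease, read 0.31 ± 0.08 and 2010320M18Rik 0.40 ± 0.10.

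Of the 12 genes chosen for being lower on every BDNF array, Slc5a5, the sodium iodide symporter, had the largest difference. It read 6.87, 6.23, 5.68 and 6.05 with BDNF and 7.14, 7.15, 7.14 and 7.60 with GFP, a difference of −1.05 ± 0.24. The BDNF arrays were spread more widely (SD 0.50) than the GFP arrays (SD 0.23). Non-transgenic arrays lay between 6.02 and 6.97, so all 5 were below every transgenic GFP array. A dimmer second probe set read −0.20. In the hippocampus, on arrays that the entorhinal comparison does not use, Slc5a5 read 6.77, 5.61, 5.48 and 5.66 with BDNF and 7.78, 6.13, 6.996 and 7.06 with GFP (−1.11 ± 0.36), with 1 BDNF array inside the GFP range.

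Cartpt, the gene of the neuropeptide precursor CART, was the one secreted peptide among the 12 named genes that were lower. It read 6.001, 5.993, 5.460 and 5.996 with BDNF and 6.44, 6.58, 6.71 and 6.74 with GFP, a difference of −0.76 ± 0.20. The groups stood apart, while the non-transgenic arrays spanned both, from 5.99 to 6.90. Hippocampal Cartpt read 0.11 ± 0.23.

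Trpc7, a calcium-permeable cation channel that opens downstream of phospholipase C, read 6.09, 6.07, 6.39 and 6.43 with BDNF and 6.63, 6.70, 6.68 and 6.80 with GFP (−0.46 ± 0.12). Its hippocampal arrays went the other way without overlap, at 6.18 to 6.28 with BDNF and 5.80 to 6.15 with GFP (0.23 ± 0.08). The difference between the 2 effects was −0.69 ± 0.15, with an adjusted limma p of 0.863, which was not called. Rnd1 read 6.53 to 6.86 with BDNF and 7.05 to 7.11 with GFP (−0.34 ± 0.09). Ly96, the gene of MD-2, which presents bacterial lipid to the receptor Tlr4, read −0.39 ± 0.11 in the entorhinal cortex and −0.45 ± 0.19 in the hippocampus. Its entorhinal arrays were near the filter level of 4.33, at 4.39, 4.13, 3.89 and 4.16 with BDNF and 4.45 to 4.65 with GFP. Hippocampal Ly96 was dim as well, at 4.09 to 4.49 with BDNF and 4.31 to 5.14 with GFP. Pemt, an enzyme of phosphatidylcholine synthesis, read −0.34 ± 0.09, the lipid flippase gene Atp10b −0.37 ± 0.09 and Chrne, a subunit of the muscle acetylcholine receptor, −0.37 ± 0.10. A second Atp10b probe set of similar brightness read −0.08, and the mean of its probe sets gave −0.23. Slfnl1 read −0.34 ± 0.09, 6430628N08Rik −0.41 ± 0.08 and LOC664787 −0.45 ± 0.09. Ccdc102a read −0.32 ± 0.08, while its other 2 probe sets read 0.12 and 0.11.

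**Figure D3:**
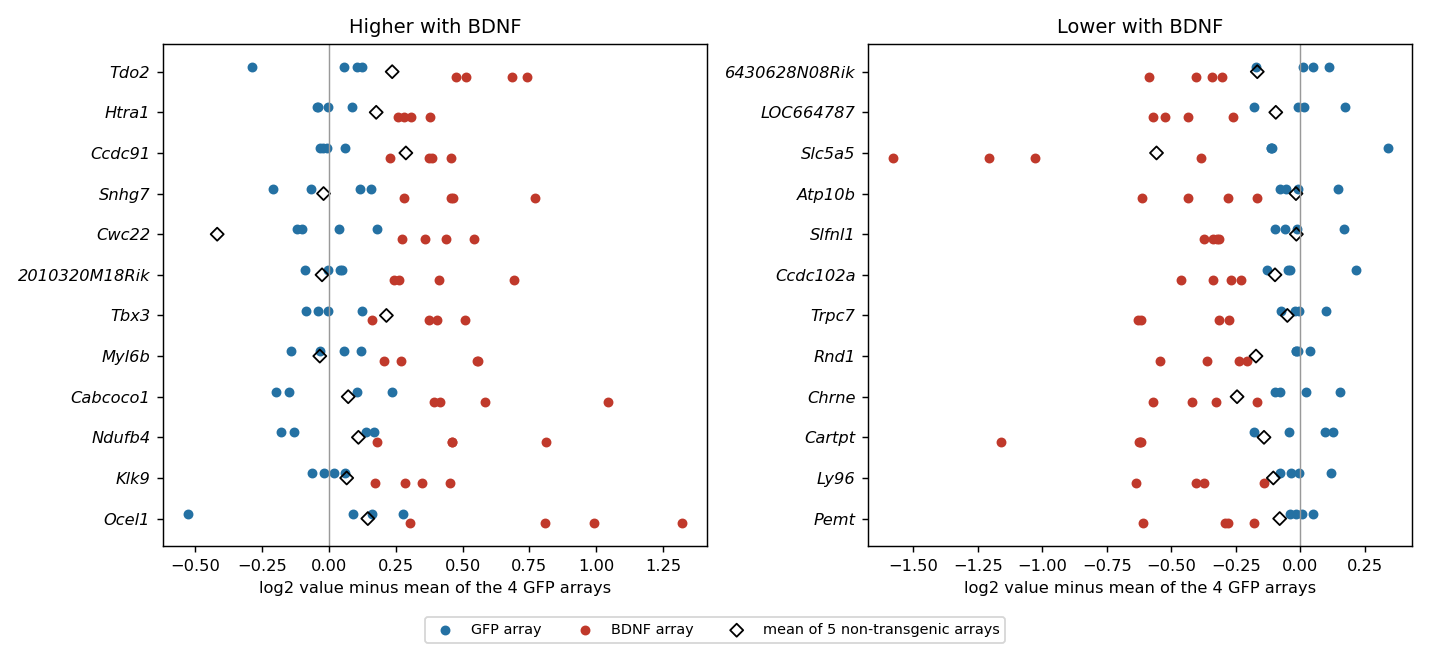
Log2 values of the 12 named genes per direction relative to the mean of the 4 transgenic GFP arrays (horizontal axis), with each BDNF and GFP array as a point and the mean of the 5 non-transgenic arrays as a diamond. The groups do not touch in these genes because that is how they were chosen, and the diamond lies nearer to the BDNF mean in 3 of 12 genes on each side.

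The same 24 genes were read in the hippocampus. Its arrays entered the choice of probe set and the filter, which used all 26 arrays, but not the overlap rule or the ranking by p. For BDNF against GFP there, 0 genes (0%) were called by limma, and 793 (5.31%) lay at p under 0.05 before adjustment. Of the 12 entorhinal genes that were higher, 8 were also higher in the hippocampus, and 4 of them (Ccdc91, Snhg7, Cwc22 and Ocel1) had an unadjusted p under 0.05. Their median difference was 0.40 in the entorhinal cortex and 0.06 in the hippocampus. Of the 12 that were lower, 3 were also lower in the hippocampus, 2 of them (Slc5a5 and Ly96) at an unadjusted p under 0.05. Trpc7 had such a p on the other side. Ly96 was near the filter level in the entorhinal cortex. The medians of the 12 lower genes were −0.38 and 0.02. The entorhinal values chose these genes, so their size there is a description only. The sources used here do not say whether the entorhinal and hippocampal arrays come from the same animals. The transgenic BDNF and GFP groups each held the same number of high and low arrays in both regions for Xist, Pttg1 and Cap1, so the hippocampal values may not be independent of the entorhinal ones. The difference between the regions, tested over 26 arrays taken as independent, gave 0 calls (0%), while 602 genes (4.03%) lay at p under 0.05 before adjustment.

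**Figure D4:**
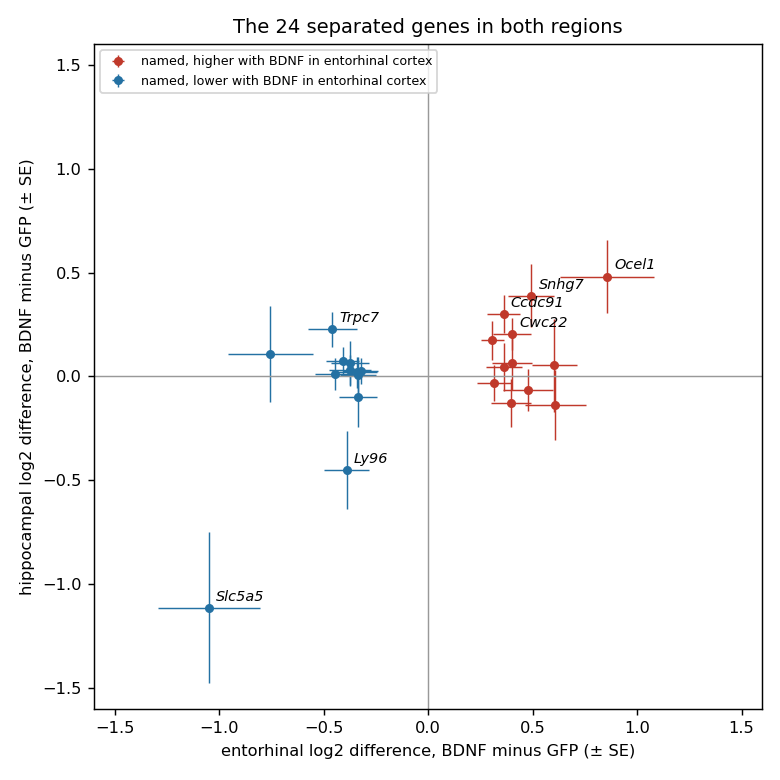
BDNF minus GFP in the entorhinal cortex (horizontal) and in the hippocampus (vertical) for the 24 named genes, on the log2 scale with standard errors. Slc5a5 reads below −1 in both regions, Ocel1, Snhg7, Ccdc91 and Cwc22 read above 0 in both, and most other genes lie close to the horizontal line at 0.

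Genes that carry the TrkB signal showed small differences on both sides. Of 32 genes listed, 23 were tested, 13 read higher and 10 lower, with a median of 0.02 against 0.01 for all genes. None had an unadjusted p under 0.05, beside 3.88% of all genes, and the whole list lay between −0.15 and 0.15. Besides Ngfr, the smallest p were those of Braf, a kinase between Ras and ERK (−0.10 ± 0.06), and the adaptor gene Shc3 (0.15 ± 0.12). The list mean ranged from 9.29 to 9.38 over the 4 BDNF arrays and from 9.28 to 9.38 over the 4 GFP arrays.

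Immediate early genes, which neurons transcribe within minutes of activity or of TrkB signalling, varied between arrays more than between groups. Many of them have a CRE, the element bound by CREB, near the start. The promoter of Fos is shown because Fos was the most variable of the activity genes followed here. It is the RefSeq sequence of GRCm38.p6, chr12:85473640-85473889, plus strand, ending at the base before the transcription start, with the CRE letters TGACGT in capitals.
Fos: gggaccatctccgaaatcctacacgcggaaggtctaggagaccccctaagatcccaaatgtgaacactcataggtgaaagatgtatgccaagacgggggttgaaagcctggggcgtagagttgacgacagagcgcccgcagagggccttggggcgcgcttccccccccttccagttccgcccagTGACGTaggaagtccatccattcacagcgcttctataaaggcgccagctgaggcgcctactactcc
The CRE begins 66 bases before the start. Searched on both strands (TGACGT or ACGTCA), the letters were found in 6.47% of 32851 promoter windows of that length and in at least 1 window of 10.5% of 11956 tested genes. Among the immediate early genes with a window they were found in 10 of 18.

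Fos read 10.07, 9.43, 7.79 and 9.74 with BDNF and 8.75, 9.70, 9.75 and 8.26 with GFP. Arc, whose protein controls glutamate receptor traffic, read 9.22, 8.60, 6.84 and 8.50 with BDNF and 8.21, 8.80, 8.74 and 7.36 with GFP. Both genes were lowest on BDNF array 3 and next lowest on GFP array 4, and highest on BDNF array 1. The transcription factor gene Egr1 had the same extremes, 11.15 on BDNF array 3 and 12.05 on BDNF array 1. The differences were 0.14 ± 0.47 for Fos, 0.01 ± 0.49 for Arc and 0.10 ± 0.19 for Egr1, each changing sign when single arrays were left out. The interval for Fos, −0.89 to 1.18, includes changes of nearly 2-fold either way. Over all 24 immediate early genes, 14 read higher and 10 lower, the median was 0.02 and 0 had an unadjusted p under 0.05. The list mean was 8.25, 8.51, 8.45 and 8.10 with GFP and 8.56, 8.30 and 8.41 on BDNF arrays 1, 2 and 4, and BDNF array 3 was below all of these. Its median was −0.11 without BDNF array 1 and 0.12 without BDNF array 3. The members with the smallest p were Rgs2, a brake on G protein signals (−0.21 ± 0.11), the zinc finger gene Klf10 (−0.21 ± 0.16) and Fosb (0.22 ± 0.17).

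Genes induced by ERK that feed back on it, such as phosphatases of the Dusp family, were also mixed. Of 17 tested, 11 read higher and 6 lower (median 0.02), and 0 had an unadjusted p under 0.05. Phlda1 read 0.18 ± 0.12, the phosphatase gene Dusp4 0.19 ± 0.21 and the Ets factor gene Etv5 −0.14 ± 0.14. Etv5 was 8.02 on BDNF array 3 and 8.64 to 8.83 on the other 7 arrays, and it read 0.05 without that array.

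Neuropeptides and other secreted proteins that neurotrophins are known to induce read lower more often than higher. Of 19 tested, 4 read higher and 15 lower, with a median of −0.14 against 0.01 for all genes. An unadjusted p under 0.05 was found for 2 of the 19, beside 3.88% of all genes. They were Cort, which encodes cortistatin (−0.23 ± 0.10), and Sst, which encodes somatostatin (−0.18 ± 0.08). Sst read 10.75, 11.06, 10.83 and 10.89 with BDNF and 10.94, 11.08, 11.16 and 11.05 with GFP, overlapping through BDNF array 2 and GFP array 1. Npy, the gene of neuropeptide Y, read 9.77, 9.61, 9.70 and 9.68 with BDNF and 9.93, 9.81, 10.15 and 9.73 with GFP, where BDNF array 1 passed the lowest GFP array. Its difference was −0.21 ± 0.11, and the sham arrays, at 10.10 to 10.30, were above every BDNF array. Tac1, the precursor gene of substance P, read −0.26 ± 0.12. Vgf, a secretory granule protein named for its induction by nerve growth factor, read 10.71, 10.78, 10.10 and 10.67 with BDNF and 10.78, 10.60, 10.90 and 10.55 with GFP (−0.14 ± 0.14). It read 0.01 without BDNF array 3. The median of the list stayed below 0 when each array was left out, between −0.17 and −0.08.

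Genes of synaptic vesicle release had 1 of 22 members that lay below GFP on all BDNF arrays, beside 0.810% of all genes. Rab3a, a GTPase on synaptic vesicles, read 11.96, 11.84, 11.83 and 11.95 with BDNF and 12.03, 12.10, 12.11 and 12.05 with GFP (−0.18 ± 0.05). The 5 non-transgenic arrays, at 12.02 to 12.07, were all above the BDNF arrays, but a second probe set of Rab3a read 0.04. The 22 genes had 14 higher and 8 lower and a median of 0.01, and both Rims1 (−0.08 ± 0.07) and Cplx1 (0.09 ± 0.10) overlapped.

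Of 23 glutamate receptor genes, 14 read higher and 9 lower (median 0.03). Only 1 had an unadjusted p under 0.05, beside 3.88% of all genes. That gene was Grin2b, a subunit of NMDA receptors, which read 9.20, 9.69, 9.44 and 9.64 with BDNF and 9.90, 9.68, 9.73 and 9.70 with GFP (−0.26 ± 0.12). The AMPA receptor gene Gria4 read 0.22 ± 0.10 and the NMDA receptor gene Grin2c 0.23 ± 0.12. Among 24 potassium channel genes, 13 read higher and 11 lower (median 0.01), with Kcnk1 at 0.13 ± 0.06, Kcna4 at −0.18 ± 0.13 and Kcnj4 at −0.24 ± 0.18. Of 25 genes of axon growth, 11 read higher and 14 lower (median −0.01). The actin regulator gene Marcksl1 read 11.38, 11.33, 11.19 and 11.64 with BDNF and 11.52, 11.79, 11.87 and 11.90 with GFP, a difference of −0.38 ± 0.13. Its other 3 probe sets read from −0.34 to −0.30, and BDNF array 4 overlapped the GFP range. Gap43, a growth cone protein, read −0.11 ± 0.06, and Sprr1a, induced in injured neurons, −0.20 ± 0.11.

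Markers of entorhinal and cortical layer neurons had list means of 9.32 to 9.57 on the 8 arrays and read slightly higher with BDNF. In bulk tissue, fewer cells of a type and less RNA per cell cannot be told apart. Of 22 tested, 16 read higher and 6 lower, with a median of 0.10. Only 1 had an unadjusted p under 0.05, beside 3.88% of all genes. That gene was Wfs1, an endoplasmic reticulum protein of certain layer II and CA1 neurons, which read 11.30, 11.32, 11.56 and 11.07 with BDNF and 11.26, 10.86, 11.01 and 10.92 with GFP (0.30 ± 0.11). GFP array 1 alone reached the BDNF range. Reln, which encodes the secreted protein reelin and marks entorhinal layer II, read 11.10, 11.62, 11.35 and 11.31 with BDNF and 11.07, 11.08, 11.16 and 11.25 with GFP (0.21 ± 0.10), and the transcription factor gene Trps1 read 0.29 ± 0.18. The list mean was 9.42, 9.57, 9.43 and 9.49 with BDNF and 9.38, 9.41, 9.41 and 9.32 with GFP, without overlap. However, BDNF array 1 was only just above GFP array 2, and the 5 non-transgenic arrays spread from 9.10 to 9.51. Left-out arrays gave list medians from 0.07 to 0.15.

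Of 19 markers of hippocampal neurons, which adjoining tissue could bring in, 10 read higher and 9 lower (median 0.01). An unadjusted p under 0.05 was found for 3, beside 3.88% of all genes. They were Tdo2 and Wfs1, given above, and Prox1, a transcription factor of dentate granule cells, at −0.44 ± 0.20. Prox1 read 5.15, 4.74, 4.21 and 4.84 with BDNF and 5.67, 4.93, 5.15 and 4.95 with GFP. Its other 2 probe sets, both dim, read 0.10 and 0.23, and the mean of its probe sets gave −0.04. GABAergic interneuron genes had 6 of 18 higher and 12 lower (median −0.06), with Cort and Sst shared with the neuropeptide list. Calb2, which encodes calretinin, read 7.77, 7.95, 8.19 and 8.35 with BDNF and 8.29, 8.86, 8.51 and 8.35 with GFP (−0.44 ± 0.20).

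Astrocyte genes read higher with BDNF in 16 of 17, though by little. Their median was 0.07, against 0.01 for all genes and 55.1% of all genes higher. Only 1 member had an unadjusted p under 0.05, beside 3.88% of all genes. The list mean was 10.68, 10.65, 10.64 and 10.55 with BDNF and 10.63, 10.57, 10.50 and 10.47 with GFP, so the groups overlapped. The non-transgenic arrays lay between 10.51 and 10.75. Aldh1l1, a folate enzyme used as a marker of astrocytes, read 8.79, 8.78, 8.58 and 8.52 with BDNF and 8.39, 8.45, 8.49 and 8.46 with GFP (0.22 ± 0.09). Its 4 BDNF arrays lay above its 4 GFP arrays, as in 1.51% of all genes, with BDNF array 4 just above GFP array 3. Ntsr2, the neurotensin receptor of astrocytes, read 0.25 ± 0.14 and the acyl-CoA synthetase gene Acsbg1 0.15 ± 0.09. The same list had 7 of 17 genes higher in the hippocampus, with a median of −0.05.

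Reactive astrocyte genes were mixed and followed the array more than the group. Of 17 tested, 6 read higher and 11 lower (median −0.13). The list mean was 7.41, 6.81, 6.84 and 7.14 with BDNF and 7.11, 6.97, 7.04 and 7.54 with GFP, and the median was 0.01 without GFP array 4. Gfap, the intermediate filament of astrocytes, read 9.92, 8.80, 9.04 and 9.004 with BDNF and 9.23, 8.78, 8.88 and 9.63 with GFP (0.06 ± 0.25). Its highest arrays were BDNF array 1 and GFP array 4. Emp1, a membrane protein, read 5.50, 5.21, 5.0008 and 5.20 with BDNF and 5.94, 5.62, 5.57 and 5.50 with GFP (−0.43 ± 0.14), BDNF array 1 and GFP array 4 being nearly equal. A second Emp1 probe set, nearly as bright, read −0.02, and the mean of its probe sets gave −0.22. Cd44, the hyaluronan receptor, was higher on all 4 BDNF arrays, as were 1.51% of all genes, at 9.48 to 9.81 against 9.10 to 9.47 (0.29 ± 0.32). However, BDNF array 4 (9.479) was only just above GFP array 4 (9.468). A second bright Cd44 probe set read 0.16 with overlapping arrays, and the non-transgenic arrays ranged from 8.01 to 10.03. Cd14, a lipopolysaccharide receptor, read −0.27 ± 0.13 and Steap4 −0.18 ± 0.12.

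Of the 32 lists, MHC class II had the largest median difference and the widest range over the 8 arrays. MHC class II genes, which display peptides to helper T cells, read lower with BDNF in 9 of 9, with a median of −0.63, and 0 of 9 had an unadjusted p under 0.05. The promoters of H2-Aa and H2-Eb1 are shown because these genes moved together across the arrays and share a Y box, an element of class II promoters. Both are RefSeq windows of GRCm38.p6 that end at the base before the start, H2-Aa at chr17:34287824-34288073 on the minus strand and H2-Eb1 at chr17:34305617-34305866 on the plus strand. Capitals mark the Y box letters CTGATTGG.
H2-Aa: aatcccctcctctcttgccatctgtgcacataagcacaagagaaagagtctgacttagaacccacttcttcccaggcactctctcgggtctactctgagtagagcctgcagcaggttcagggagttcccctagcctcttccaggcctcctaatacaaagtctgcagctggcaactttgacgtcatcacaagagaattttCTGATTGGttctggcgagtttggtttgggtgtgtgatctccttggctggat
H2-Eb1: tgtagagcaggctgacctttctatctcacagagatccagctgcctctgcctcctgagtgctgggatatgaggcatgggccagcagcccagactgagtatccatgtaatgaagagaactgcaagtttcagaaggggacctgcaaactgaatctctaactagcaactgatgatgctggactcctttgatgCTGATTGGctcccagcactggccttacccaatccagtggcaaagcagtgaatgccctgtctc
The match begins 51 bases before the start of H2-Aa and 62 before that of H2-Eb1. On both strands (CTGATTGG or CCAATCAG) it was found in 3 of the 6 class II genes with a window, in 3.83% of all windows of that length and in 5.87% of the tested genes.

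H2-Aa, an alpha chain, read 10.92, 7.17, 7.62 and 9.54 with BDNF and 8.99, 8.38, 9.26 and 11.89 with GFP. H2-Eb1, a beta chain, read 10.49, 6.44, 5.84 and 8.997 with BDNF and 8.83, 8.02, 8.81 and 10.35 with GFP. Both were highest on BDNF array 1 and GFP array 4 and lowest on BDNF arrays 2 and 3. The differences were −0.82 ± 0.97 for H2-Aa and −1.06 ± 1.06 for H2-Eb1. The mean over the 9 genes was 9.12, 6.79, 7.06 and 8.10 with BDNF and 8.06, 7.67, 7.96 and 9.72 with GFP. The non-transgenic arrays varied nearly as widely: the GFP arrays were 9.47 and 7.24 and the sham arrays 6.68 to 6.96. The list median was −0.07 without GFP array 4 and −0.97 without BDNF array 1. H2-DMa, which loads peptides, read −0.37 ± 0.28, H2-Oa −0.63 ± 0.63 and Ciita, the master regulator of class II genes, −0.16 ± 0.15.

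The class I pathway, which displays peptides to killer T cells, read lower in 13 of 13 (median −0.24) and was also carried by single arrays. Its mean was 8.68, 7.44, 7.35 and 8.06 with BDNF and 7.93, 7.52, 7.92 and 9.10 with GFP. The median was 0.08 without GFP array 4 and −0.56 without BDNF array 1. H2-M3 read −0.40 ± 0.34, the peptide transporter gene Tap1 −0.35 ± 0.44 and Tapbp, which encodes tapasin, −0.17 ± 0.23.

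Interferon response genes read lower in 17 of 22 (median −0.13), and 0 had an unadjusted p under 0.05. The promoter of Ifit3, an antiviral protein, is shown as an example of the element on which such genes are switched on, the ISRE. It is the RefSeq window of GRCm38.p6 at chr19:34583279-34583528, plus strand, with the matches in capitals. A match is GAAA, any 2 bases and GAAA again, or on the other strand TTTC, any 2 bases and TTTC.
Ifit3: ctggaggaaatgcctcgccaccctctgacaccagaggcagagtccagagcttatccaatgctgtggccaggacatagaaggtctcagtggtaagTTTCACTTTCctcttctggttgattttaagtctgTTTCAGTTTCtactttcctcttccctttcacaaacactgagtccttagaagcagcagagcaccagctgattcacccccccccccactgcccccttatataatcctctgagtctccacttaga
The matches begin 156 and 122 bases before the start. The letters were found on either strand in 9 of 18 interferon response genes with a window, against 3.04% of tested genes and 2.98% of all windows. Ifit3 read 8.52, 7.10, 7.09 and 7.48 with BDNF and 8.04, 7.19, 7.88 and 9.29 with GFP (−0.55 ± 0.46). Its order of arrays was close to that of the class II genes, with GFP array 4 and BDNF array 1 on top. Bst2, which tethers budding virus, read −0.43 ± 0.36 and Oas2, a sensor of double-stranded RNA, 0.10 ± 0.10. The list median was 0.10 without GFP array 4 and −0.35 without BDNF array 1.

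Lymphocyte and plasma cell genes read lower in 19 of 19 (median −0.20). Only 1 had an unadjusted p under 0.05, beside 3.88% of all genes. Ighm, the constant region of immunoglobulin M, read 7.49, 6.61, 6.50 and 6.85 with BDNF and 8.17, 6.64, 9.39 and 13.23 with GFP (−2.50 ± 1.32). GFP array 4 was by far the highest and GFP array 2 lay within the BDNF range. Without GFP array 4 the difference was −1.20, and the mean of all its probe sets gave −1.22. The other probe sets of Ighm disagreed, reading from −2.91 to 0.03, and the brightest of them read 0.03. Jchain, which joins immunoglobulin polymers, read 6.96, 5.19, 5.73 and 8.37 with BDNF and 9.18, 6.53, 8.35 and 11.74 with GFP (−2.39 ± 1.19), and its difference was −1.46 without GFP array 4. Among non-transgenic arrays, GFP array 1 was high for both (12.82 for Ighm and 11.67 for Jchain), whereas the sham arrays lay at 6.58 to 6.93 and 3.91 to 4.20. Gzmb, a protease of killer cells, did not overlap, at 4.63 to 4.98 with BDNF and 4.99 to 5.51 with GFP (−0.30 ± 0.14), but the groups were 0.01 apart. The list median was −0.01 without GFP array 4. Fragments of the immunoglobulin genes are similar in sequence, so their probe sets may share signal.

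Chemokine genes read lower in 16 of 20 (median −0.25, and 0.03 without GFP array 4). Ccl5, which attracts T cells, read 8.38, 5.44, 5.96 and 7.03 with BDNF and 6.37, 5.33, 6.39 and 10.28 with GFP (−0.39 ± 0.99). Ccl4 read −0.33 ± 0.16 and Cxcl16 −0.38 ± 0.21, whereas Cxcl14, a chemokine of interneurons, read 0.30 ± 0.16. Complement genes had 5 of 13 higher and 8 lower (median −0.06, and 0.12 without GFP array 4), with Cfb at −0.44 ± 0.30, Cd59a at 0.16 ± 0.15 and Cd55 at 0.14 ± 0.15. These lists, and the microglial ones, were all highest on BDNF array 1 or GFP array 4, and what sets those arrays apart was not tested.

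Microglial genes read lower in 17 of 23 (median −0.10), and 1 gene went strongly the other way. Fcrls, a surface receptor of resident microglia, read 8.25, 8.10, 8.03 and 7.28 with BDNF and 6.65, 7.33, 6.50 and 7.03 with GFP. Only BDNF array 4 and GFP array 2 crossed. The difference was 1.04 ± 0.25, the interval 0.50 to 1.58 and the adjusted limma p 0.998. Sham arrays lay at 8.60 to 8.76, above every transgenic array, and non-transgenic GFP arrays at 7.43 and 6.50, close to the transgenic GFP arrays. In the hippocampus Fcrls read 8.07, 7.16, 8.18 and 7.71 with BDNF and 7.10, 6.50, 6.83 and 6.98 with GFP (0.93 ± 0.27), without overlap. The other members with the smallest p were Ly86 (−0.41 ± 0.30) and the purine receptor gene P2ry13 (−0.16 ± 0.12). The list mean was 9.03, 8.31, 8.62 and 8.52 with BDNF and 8.48, 8.45, 8.63 and 9.08 with GFP. The list median was 0.07 without BDNF array 2.

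Genes that microglia switch on around amyloid plaques read lower in 17 of 21 (median −0.05), with 0 at an unadjusted p under 0.05. Their mean was 8.98, 8.08, 8.35 and 8.39 with BDNF and 8.35, 8.28, 8.45 and 9.18 with GFP, again highest on BDNF array 1 and GFP array 4, and their median was 0.06 without GFP array 4. With the MHC class II mean as a covariate the list medians turned to 0.09 for microglia, 0.11 for the plaque-associated genes, 0.13 for class I, 0.13 for interferon response and 0.13 for complement, and stayed below 0 for lymphocytes (−0.034) and chemokines (−0.017). Ccl3 read −0.31 ± 0.19 and the receptor kinase gene Axl 0.17 ± 0.15.

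**Figure D5:**
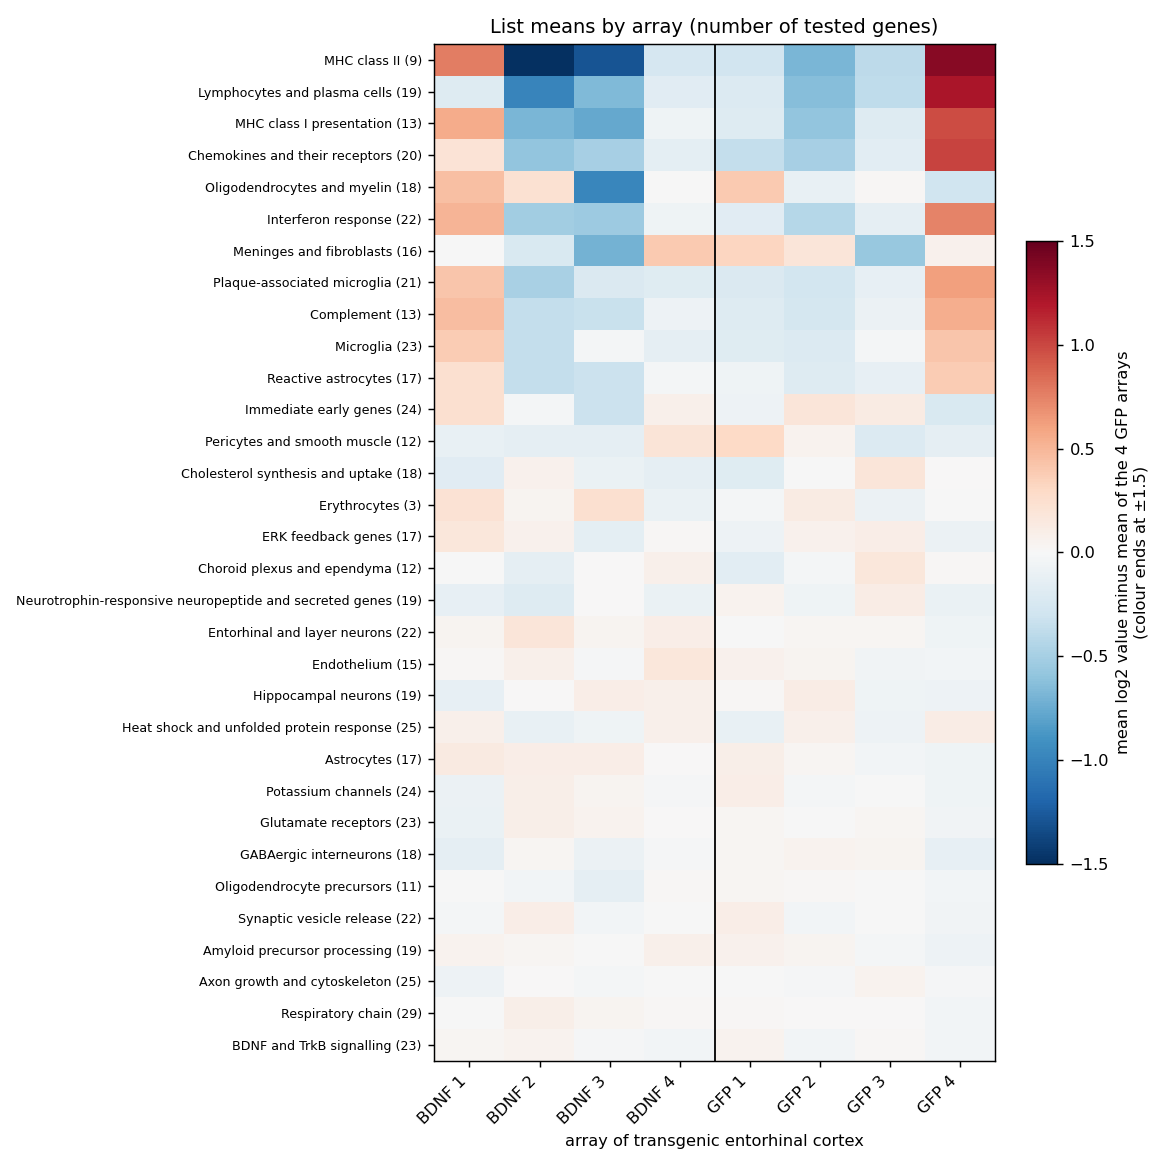
Mean log2 value of each gene list (rows, with the number of tested genes) on each of the 8 arrays (columns), relative to the mean of the 4 GFP arrays. The MHC class I and II, interferon response and complement lists are red on BDNF array 1 and GFP array 4 and blue on BDNF arrays 2 and 3, the lymphocyte list is red on GFP array 4 alone, the myelin list is lowest on BDNF array 3 (7.03), and the neuronal and metabolic lists in the lower rows are nearly uncoloured.

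Oligodendrocyte and myelin genes read lower in 15 of 18 (median −0.08), which turned to 0.23 without BDNF array 3. Mag, an adhesion protein of myelin, read 7.55, 7.11, 6.0005 and 6.75 with BDNF and 7.60, 7.09, 7.09 and 6.84 with GFP (−0.31 ± 0.30). Opalin read 0.45 ± 0.31 and the connexin gene Gjb1 −0.23 ± 0.19. Of 11 genes of oligodendrocyte precursors, 3 read higher and 8 lower (median −0.06, and 0.08 without BDNF array 3), with Cacng4 at −0.15 ± 0.10, Lhfpl3 at −0.09 ± 0.09 and Cspg4 at −0.10 ± 0.12.

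Among endothelial genes, 2 of 15 separated the groups, both higher with BDNF, beside 1.51% of all genes. Tek, the receptor of angiopoietins, read 7.68, 7.89, 8.07 and 7.94 with BDNF and 7.68, 7.64, 7.62 and 7.55 with GFP (0.27 ± 0.08), with BDNF array 1 and GFP array 1 equal at this rounding. Cldn5, a tight junction protein of the blood-brain barrier, read 9.36, 9.43, 9.20 and 9.29 with BDNF and 9.12, 9.08, 9.17 and 9.13 with GFP (0.19 ± 0.06). Its non-transgenic GFP arrays read 8.93 and 8.92 and its sham arrays 9.18 to 9.33. Pecam1, an adhesion protein between endothelial cells, read 0.21 ± 0.10. The list had 10 of 15 higher (median 0.05, and −0.03 without BDNF array 4), and Tek and Cldn5 were not higher in the hippocampus (0.00 ± 0.11 and −0.08 ± 0.10).

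Cells of the vessel wall and coverings differed in array more than in group. Pericyte and smooth muscle genes had 6 higher and 6 lower (median −0.02), with Anpep, an aminopeptidase, at −0.35 ± 0.18, Kcnj8 at 0.12 ± 0.09 and Pdgfrb at −0.15 ± 0.18. Meningeal and fibroblast genes read lower in 15 of 16 (median −0.17, and 0.01 without BDNF array 3). Their mean was 8.42, 8.20, 7.72 and 8.82 with BDNF and 8.76, 8.62, 7.86 and 8.49 with GFP. Col1a1, a fibrillar collagen, read −0.37 ± 0.24, Lum −0.17 ± 0.13 and Mgp, an inhibitor of calcification, 0.38 ± 0.35. The defining genes of choroid plexus and ependyma were dim, with list means of 5.20 to 5.53, 5 of 12 higher and a median of −0.02. Ccdc153 read −0.24 ± 0.13, Tmem212 −0.36 ± 0.21 and Kl −0.16 ± 0.17.

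Genes of cholesterol synthesis and uptake read lower with BDNF in 16 of 18, each by little (median −0.08). Fdft1, squalene synthase, read 10.67, 10.81, 10.46 and 10.68 with BDNF and 10.72, 10.92, 10.96 and 10.87 with GFP (−0.21 ± 0.08), where BDNF array 2 exceeded GFP array 1. Nsdhl read −0.10 ± 0.06 and Fdps −0.17 ± 0.11. The list mean was 8.89, 9.13, 8.96 and 8.92 with BDNF and 8.87, 9.05, 9.24 and 9.07 with GFP, so the groups overlapped. The median was −0.03 without GFP array 3 and −0.13 without GFP array 1.

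Genes that cut, carry or clear the amyloid precursor and its peptides had 12 of 19 higher and 7 lower (median 0.02), with 0 at an unadjusted p under 0.05. Mme, which encodes the amyloid-degrading protease neprilysin, had the largest difference, reading 7.10, 7.64, 7.35 and 7.55 with BDNF and 7.20, 7.05, 6.74 and 6.51 with GFP (0.54 ± 0.27). Only BDNF array 1 fell in the GFP range, and the 5 non-transgenic arrays averaged 6.54. A second, dim Mme probe set read 0.13, and the mean of its probe sets gave 0.33. Apbb1, which binds the tail of the precursor, read 0.11 ± 0.06 and Clu, which encodes clusterin, 0.07 ± 0.06. Heat shock and unfolded protein genes had 14 of 25 higher (median 0.02), with Hsph1 at 0.11 ± 0.08, Xbp1 at −0.19 ± 0.16 and Dnajb1 at −0.14 ± 0.12. The respiratory chain list, which does not hold Ndufb4, had 24 of 29 genes higher. Its median was only 0.04 and its range −0.08 to 0.10. Ndufa9 read 0.10 ± 0.06, Uqcrh 0.09 ± 0.07 and Uqcrfs1 0.08 ± 0.07.

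A few genes took levels in separate ranges. Cap1, which recycles actin, read 10.17, 6.37, 6.03 and 10.99 with BDNF and 11.01, 10.97, 11.09 and 11.13 with GFP. Its difference of −2.66 ± 1.13 came from BDNF arrays 2 and 3, and a second probe set read −2.59. Sham array 1 was low as well (6.64), and in the hippocampus 2 of 4 BDNF arrays were low (6.59 and 6.81) and 0 of 4 GFP arrays. Pttg1, the separase inhibitor securin, was singled out after its values were seen. It read 10.90, 10.78, 10.89 and 10.81 with BDNF and 7.86, 7.55, 10.75 and 7.52 with GFP, so that 1 GFP array lay just under the BDNF arrays and 3 lay far below them. Its difference was 2.43 ± 0.72. The 3 sham arrays were at 11.31 to 11.41, 1 of 2 non-transgenic GFP arrays was low, and in the hippocampus 4 of 4 BDNF arrays and 1 of 4 GFP arrays were high.

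Of the 13 genes with a difference above 1, 3 read higher and 10 lower, and 12 had the same sign in the hippocampus. Over all genes, 6801 read higher and 8140 lower there. Ighm, Jchain, Igkv8-30, Gbp8 and Slpi were each highest on GFP array 4 of the 8 arrays, and the 2 regions may share animals. The 12 signs may therefore not be independent. The 13 include the immunoglobulin fragment Igkv8-30 at −2.38 ± 1.24 (−1.42 without GFP array 4) and the interferon-induced GTPase gene Gbp8 at −1.03 ± 1.20, which read 9.60 on GFP array 4 and 4.11 on BDNF array 3. The others were chosen after their values were seen. Trh, the precursor of thyrotropin-releasing hormone, read 4.82, 4.70, 5.27 and 7.25 with BDNF and 7.11, 8.31, 5.59 and 6.81 with GFP (−1.45 ± 0.74), and it was the gene with the opposite sign in the hippocampus, at 0.19 ± 0.14. Gask1b read 4.45, 4.33, 4.29 and 5.26 with BDNF and 5.63, 4.91, 6.02 and 6.02 with GFP (−1.06 ± 0.31), with BDNF array 4 above GFP array 2, and −0.96 ± 0.22 in the hippocampus. Slpi, a protease inhibitor, read −1.05 ± 0.72, carried by GFP array 4 at 9.91 against 6.56 to 7.30 on the other 7. 1500004A13Rik read 6.95 to 7.28 with BDNF and 4.88 to 6.36 with GFP (1.16 ± 0.42), and 1.27 ± 0.46 in the hippocampus.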

How the data were processed

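Tissue RNA had been hybridised to 26 Affymetrix arrays, 13 per region. The authors deposited log2 values of 45101 probe sets made with RMA, per the submitters' processing notes. RMA corrects background, brings arrays to a common distribution and summarises probes, so a shift of most genes together would be hidden and differences of dim genes are compressed. The sources used here name no version and no genome build. The number of arrays limits the precision.

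Symbols came from the platform annotation (34958 probe sets with 1 symbol, 932 with several, 9211 with none), and 34754 were updated through Entrez identifiers with the table of GRCm38.p6. For each of 18194 genes the brightest probe set, by its mean on the 26 arrays, was used. Genes under the 30th percentile of probe-set means (4.33) were left out, which left 14941.

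Limma 3.58.1 in R 4.3.3 (lmFit, eBayes, 2-sided, Benjamini-Hochberg, called at an adjusted p under 0.05) was fitted to the 13 arrays of a region in 4 groups, and to 26 arrays in 8 groups for the difference between regions. The fit was tested on simulated data. Named genes are the 12 non-overlapping genes per direction with the smallest p, 3 members with the smallest p of each list described plus members without overlap, the 10 genes with the largest SD over the 8 arrays, and Bdnf, Ntrk2, Ngfr, Sort1, App, Gfap, Fos, Arc, Egr1, Npy, Vgf and Xist. H2-Aa is named for its promoter. The 32 lists hold 632 genes, of which 551 were tested. An erythrocyte list with 3 tested genes is not described further (median 0.11). The arrays, lists and rules were chosen with earlier results of these data known. Promoters are RefSeq windows. Alternatives covered the filter, the probe set, normalization, eBayes options, array weights, the arrays fitted, the replicate number, Xist, myelin and MHC class II covariates, and left-out arrays. Those for counts of non-overlapping genes were chosen after seeing the data.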

Additional observations from a re-analysis of the deposited data

Results flagged for a closer look

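A check for 1 array far from the other 3 of its group was made on 326 groups of 4 values, of which 20 stood out. Chance marks about 1 in 20 groups.

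On GFP array 4, immune genes stood high: Ly86 (10.73), Ccl4 (6.47), Ccl3 (5.51), H2-DMa (8.97), H2-Oa (8.03), Gzmb (5.51) and Cfb (6.07). Slc5a5 was also high there (7.60), and the mean of the GABAergic interneuron list was low (9.05). On GFP array 1, Tdo2 (3.66) and Fdps (8.41) were low and Rnd1 (7.11) and Uqcrh (11.21) high. On GFP array 3, Anpep was low (4.75) and the mean of the axon growth list high (10.62).

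On BDNF array 3, the neuropeptide genes Cartpt (5.46) and Vgf (10.10) were low. On BDNF array 4, Acsbg1 was low (9.08) and the mean of the pericyte and smooth muscle list high (7.21). Kl was low on BDNF array 1 (3.73).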

How the results depend on the processing

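In the entorhinal comparison limma called 0 genes under each of the 12 other settings and with each array left out. The lowest adjusted p was 0.270, with the trend and robust options of eBayes. In the hippocampus and in the difference between regions the count also remained 0 under every alternative run, with lowest adjusted p of 0.110 and 0.226. The count of entorhinal genes at an unadjusted p under 0.05 was 431 to 813 over the other settings. With 1 array left out it was 482 to 940, the highest without BDNF array 4.

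Counts of non-overlapping genes grow by construction when an array is left out, to 360 to 649 above and 222 to 373 below. With the filter at the 50th percentile, which tests fewer genes, 69 lay below. The oligodendrocyte precursor median was 0.020 with array weights and −0.096 to 0.081 with 1 array left out, and the endothelial median −0.034 to 0.106.

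The labels do not say whether equal replicate numbers pair the samples. Deviations of same-numbered BDNF and GFP arrays correlated at −0.04, 0.12, 0.16 and 0.12. Those of arrays with unlike numbers correlated at −0.39 to 0.32, a range that holds the same-numbered values, so the pairing cannot be decided from them. With the replicate number as a block, 0 genes were called and 630 had an unadjusted p under 0.05. The block gave 0 calls in the hippocampus and between regions as well.

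Of 131 named genes, 21 changed direction under at least 1 setting, 51 of 2588 values in all, and the cause was not tested. With the MHC class II mean as a covariate Gbp8 read 0.11, Ccl5 0.54, App −0.0087, Tap1 0.057 and Tapbp 0.046. With the Xist covariate Eif2s3y read 0.0085 and Arc −0.00050, and with array weights App read −0.0036. The mean of all probe sets gave Ntrk2 0.014 and Cspg4 0.029. With 1 array left out, App ranged from −0.017 to 0.020, Arc from −0.30 to 0.50, Bdnf from −0.033 to 0.21, Egr1 from −0.013 to 0.29, Fos from −0.14 to 0.63, Gfap from −0.18 to 0.22 and Ntrk2 from −0.16 to 0.0013. Ccl5 ranged from −0.98 to 0.67, H2-Oa from −0.97 to 0.086, Tap1 from −0.63 to 0.079, Tapbp from −0.30 to 0.013 and Xbp1 from −0.31 to 0.0019. Eif2s3y ranged from −1.06 to 0.73, Kdm5d from −0.98 to 0.51 and Xist from −0.72 to 1.11. Etv5 ranged from −0.22 to 0.048, Kl from −0.24 to 0.016, Pdgfrb from −0.28 to 0.0094 and Vgf from −0.21 to 0.011.

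With 4 arrays a group and a median standard error of 0.10, 0 genes were called at any size of difference. The bright gene Htra1, at 0.31 ± 0.06, was not called. In noisy genes even large differences were not called, such as that of Cap1 (−2.66 ± 1.13, adjusted limma p 0.998). Differences in noisy genes and in genes near the filter level cannot be told from the spread between arrays.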
